A study of Homo sapiens with 18 samples.

Results

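A set of 41 genes for synaptic vesicles and transmitter release was followed in SH-SY5Y cells 15 min after an opioid receptor ligand was added. The members are a list of names, and all 41 were found among the 58735 genes of the count table through GENCODE 29. They fall into 6 roles: vesicle membrane proteins and synapsins (7 genes), synaptotagmins (6), SNAREs with complexins and the proteins that recycle SNAREs (11), docking, priming and active zone proteins (10), vesicle retrieval (5) and presynaptic adhesion (2). Every library comes from 1 tumour, since SH-SY5Y is a human neuroblastoma line of long standing. The cells are labelled wild type, and all of them, the water group included, had been exposed for 7 days to 10 µM all-trans retinoic acid, which moves the line towards a neuron-like state. The groups were Morphine at 193 nM, Metamorphine at 169 nM, TRV130, a mu receptor agonist, at 200 nM, Beta-endorphin, an opioid peptide made in the body, at 200 nM, Naloxone, an opioid receptor antagonist, at 200 nM, and water (Control), each for 15 min and each with 3 libraries.

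In a nerve terminal, synapsins hold vesicles in a reserve, and RAB3 proteins, RIM scaffolds and Munc13 proteins dock them and make them ready at the active zone. Synaptobrevin on the vesicle then zips with syntaxin and SNAP25 on the plasma membrane, complexins hold that complex, and calcium bound to synaptotagmin sets off fusion. NSF and its adaptors take the spent SNAREs apart, while AP180, amphiphysin, dynamin and synaptojanin bring the membrane back. Neuroblastoma cells of sympathetic origin share much of this machinery with neurons and use it for vesicles that hold catecholamines.

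Library totals ran from 21211449 to 33123855 counts, and members took 0.165% to 0.249% of the counts of a library. The labels do not tell whether the 3 libraries of a group are separate cultures, so the spread behind each p-value may be a technical one. Library names end in a code, called A, B and C here. What the code stands for is not given in the labels. Code C held replicate 3 of each group but TRV130, code B replicate 2 of each group but TRV130 together with TRV130 3, and code A replicate 1 of each group and TRV130 2. Control 1 stood apart, with 20888 reads in 3647 coding genes whose median count was 0, against 276 to 3074 in the other 17 libraries. Of 18 sympathetic and neuronal markers, 17 averaged over 1 CPM, among them the transcription factor gene PHOX2A at 1577 CPM and DBH, which makes noradrenaline, at 1708 CPM. TH, the first enzyme of that pathway, averaged 0.103 CPM. Over 1 CPM stood 7 of 8 mesenchymal markers, 3 of 9 glial, 2 of 9 immune, 1 of 8 epithelial and 0 of 6 endothelial markers, and the lists other than the neuronal and mesenchymal ones were low. Their summed levels were each highest in Control 1: 15.4 CPM for glial, 19.9 for immune, 15.7 for epithelial and 7.11 for endothelial markers, against at most 10.8, 11.5, 5.83 and 3.10 CPM in the other 17 libraries. The part of these markers in the differences from Control was not tested. These are bulk samples, in which fewer cells of a type and less RNA per cell cannot be told apart.

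Most of the release machinery was expressed. Of the 41 members, 39 had enough counts to test, 32 averaged over 10 CPM and 6 over 100 CPM (CPM, counts scaled to library size by TMM). Those 6 were SYT11, DNM1, SYT4, SV2A, DNAJC5 and SNAP25. The 4 members under 1 CPM were SYN3, the third synapsin, at 0.428 CPM, NRXN3, a neurexin, at 0.359 CPM, SV2B, a vesicle glycoprotein, at 0.141 CPM and AMPH, amphiphysin, at 0.0309 CPM. Their reads ran from 3 to 26, 3 to 30, 0 to 35 and 0 to 7 per library, and SV2B and AMPH were not tested. SV2B, AMPH, NRXN3 and SYN3 were each highest in Control 1, at 1.57, 0.315, 1.35 and 1.17 CPM.

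Levels of different genes were set side by side per length, as CPM per kb of exon. In the vesicle membrane group, SV2A, the glycoprotein that binds the antiepileptic drug levetiracetam, stood first at 23.4 CPM per kb, above SYP, synaptophysin, at 17.1, SYN1 at 7.33, SV2C at 3.75 and SYN2 at 2.16. SYT11 led the synaptotagmins and all 41 members at 69.1 CPM per kb, the 96.8th percentile of tested coding genes. SYT4 followed at 29.3, and both encode synaptotagmins that do not bind calcium in the usual way. The fast calcium sensors SYT1 and SYT2 stood at 12.6 and 0.661 CPM per kb, the slower sensor SYT7 at 1.84 and SYT5 at 12.01.

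All 11 genes around the SNAREs were expressed. SNAP25, the plasma membrane SNARE, reached 30.3 CPM per kb and its partner STX1A, syntaxin 1A, 15.1. The vesicle SNAREs followed the order VAMP2 at 20.4, VAMP3, the cellubrevin of endosomes, at 19.2 and VAMP1 at 1.72 CPM per kb. DNAJC5, the chaperone of SNAP25 known as cysteine string protein, stood at 19.7, the complexins CPLX1 and CPLX2 at 18.1 and 6.75, and NSF with its adaptors NAPA and NAPB at 5.91, 14.1 and 6.78 CPM per kb.

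Docking and active zone genes spanned a wide range. RAB3A, the main RAB3 GTPase of vesicles, stood at 16.05 CPM per kb, RAB3C at 2.42 and RAB3B at 1.04. UNC13A and UNC13B, the Munc13 priming factors, reached 5.90 and 2.27, the giant scaffolds BSN (bassoon) and PCLO (piccolo) 2.22 and 1.32, the RIM scaffolds RIMS2 and RIMS1 1.15 and 0.520, and RPH3A, the RAB3 effector rabphilin, 0.351 CPM per kb. For retrieval, DNM1, the dynamin that cuts vesicles from the membrane, stood at 12.3, the clathrin adaptor SNAP91 (AP180) at 5.07, the phosphatase SYNJ1 at 2.48 and DNM3 at 0.331. NRXN2, a neurexin, stood at 7.82 CPM per kb.

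**Figure D1:**
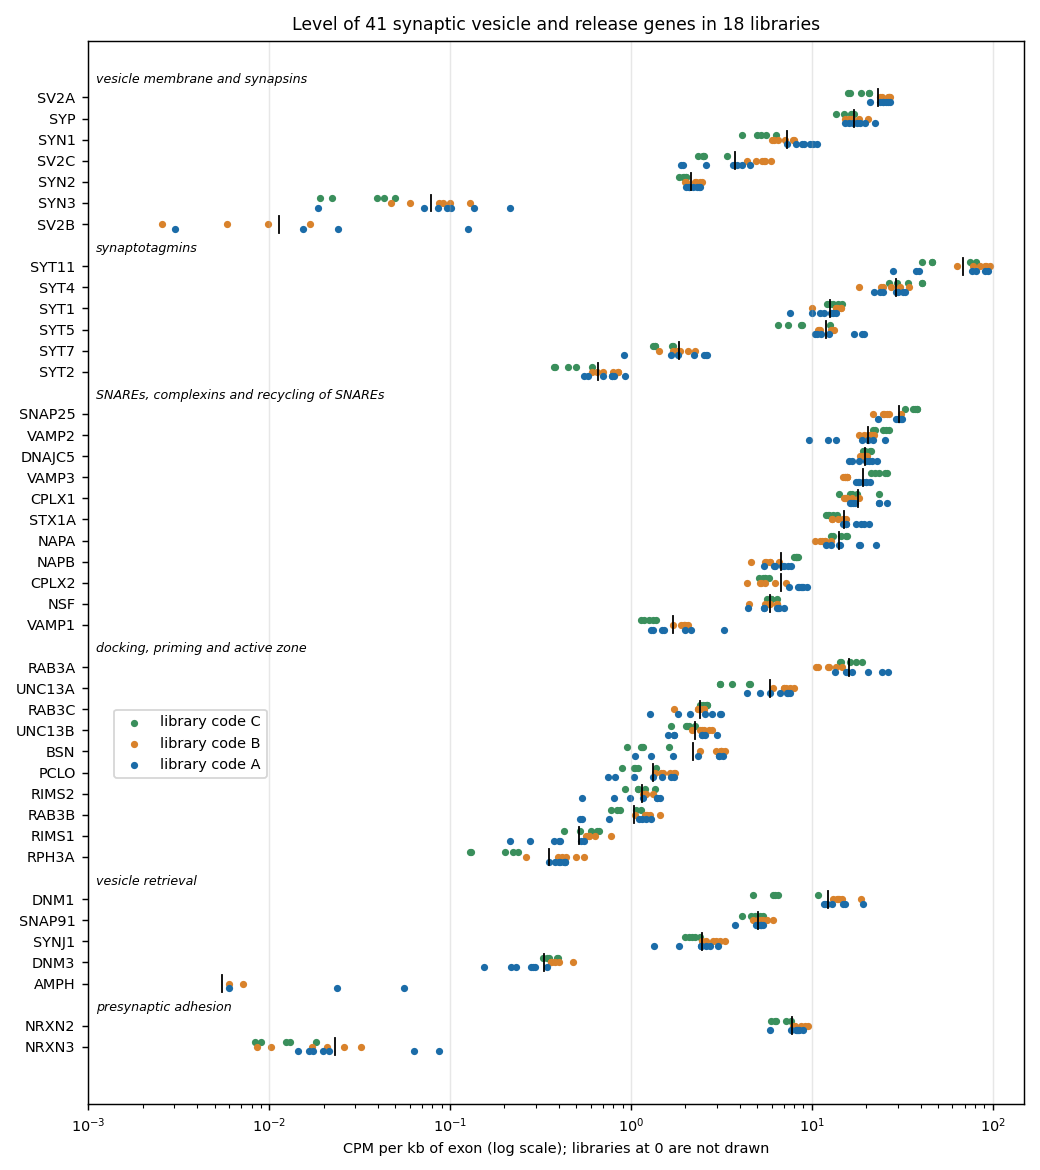
Level of each of the 41 members in CPM per kb of exon (log axis), grouped by role; points are libraries coloured by library code and the vertical mark is the mean of 18 libraries. SYT11 stands highest at 69.1 CPM per kb, and SYN3, NRXN3, SV2B and AMPH lie far to the left of the other members of their roles.

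How steady a member was differed from gene to gene. SYN2 and DNAJC5 were the 2 members whose highest library lay at most 1.5-fold above the lowest, at 1.33-fold and 1.41-fold. DNM1 spanned 4.04-fold and RPH3A 4.28-fold, and SYN3 and NRXN3, with few reads, spanned 11.5-fold and 10.4-fold. Exons of 11 members overlap those of a gene on the other strand, among them SYT2 over 2111 bp, NAPA over 988 bp and STX1A over 662 bp. Reads without strand cannot be told apart there, so these members may have gained or lost counts. The same holds for 5 members with exon overlap on the same strand, among them NAPA over 752 bp and VAMP2 over 430 bp. NSF, with 14198 reads in all, has a near-identical copy, NSFP1, with 226, and the reads of the pair may have been split between them.

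Promoters are shown for SYN1, VAMP3 and UNC13A, chosen with their values known because these members differed clearly between library codes and in different directions. Each sequence is the stretch before the gene's annotated start from the RefSeq promoter window of GRCh38.p14, 5′ to 3′ on the gene's strand, and 35 of the 41 members had such a window. Capitals in SYN1 mark an RE1 element, the motif bound by the neuronal repressor REST, searched as TTCAGCACC, any 2 bases and GGACAG, and a full cAMP response element, TGACGTCA. Capitals in VAMP3 and UNC13A mark GC boxes, GGGCGG on either strand. The SYN1 stretch lies at chrX:47619944-47620107 (minus strand), that of VAMP3 at chr1:7771046-7771268 (plus strand) and that of UNC13A at chr19:17688366-17688604 (minus strand).
SYN1: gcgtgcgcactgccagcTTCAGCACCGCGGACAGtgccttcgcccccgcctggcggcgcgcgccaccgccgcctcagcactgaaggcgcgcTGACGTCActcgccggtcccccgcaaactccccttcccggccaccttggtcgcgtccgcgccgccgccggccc
VAMP3: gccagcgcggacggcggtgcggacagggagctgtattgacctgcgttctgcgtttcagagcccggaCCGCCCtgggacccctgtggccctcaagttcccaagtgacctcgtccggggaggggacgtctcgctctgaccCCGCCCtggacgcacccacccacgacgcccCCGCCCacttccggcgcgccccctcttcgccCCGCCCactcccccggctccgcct
UNC13A: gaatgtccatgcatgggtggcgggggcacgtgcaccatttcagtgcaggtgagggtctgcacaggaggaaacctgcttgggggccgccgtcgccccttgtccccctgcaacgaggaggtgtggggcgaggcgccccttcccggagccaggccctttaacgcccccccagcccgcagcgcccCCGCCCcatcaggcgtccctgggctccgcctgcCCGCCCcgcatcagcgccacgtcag

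Both strands were searched over the 250 bases before each start. The RE1 letters occurred in 5 of 35116 windows (0.0142%) and in 1 of the 35 member windows, that of SYN1. The cAMP response element occurred in 578 windows (1.65%) and in 1 member window, again SYN1. A GC box occurred in 42.6% of all windows and in 28 of the 35 member windows (80.0%). The shares are not of like sets, since members were counted once per gene and all windows were counted without regard to gene type. Whether members differ from other coding genes was not tested. A match is a run of letters and not a measured site.

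After 15 min, no member passed the test against Control with any compound. By the quasi-likelihood test of edgeR, adjusted by Benjamini-Hochberg over 23231 genes, 0 of 39 members were called at adjusted p below 0.05 for Morphine, Metamorphine, TRV130, Beta-endorphin, Naloxone or the mean of the 5 compounds, and the same test called 0% of all genes in each. DESeq2 called 0 members as well. The smallest adjusted p of a member was 0.823 for Morphine, 0.595 for Metamorphine, 1.00 for TRV130, 0.513 for Beta-endorphin and 0.655 for Naloxone. All 5 comparisons use the same 3 Control libraries, so they are not separate evidence of a direction. Intervals were wide: at the median member, the 95% interval of the Morphine log2 fold change reached 0.53 to each side.

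At an unadjusted p below 0.05, 3 members were higher with Morphine (1.45% of all genes), 4 with Metamorphine (2.84%), 2 with TRV130 (0.568%), 5 with Beta-endorphin (3.96%), 3 with Naloxone (2.33%) and 5 in the mean of the compounds (3.8%), and no member was lower. They came from 6 genes, RAB3C, NSF, SYT7, SYT1, UNC13B and NRXN2, and SYN1 was the third by p for TRV130. Without a threshold, the fitted log2 fold change lay above 0 for 27 of 39 members with Morphine (46.4% of all genes), 27 with Metamorphine (46.8%), 29 with TRV130 (47.2%), 25 with Beta-endorphin (46.4%), 25 with Naloxone (46.3%) and 27 in the mean (46%). The median member log2 fold change was 0.18, 0.18, 0.11, 0.18 and 0.16 in that order of compounds, beside -0.03, -0.04, -0.02, -0.04 and -0.04 over all tested genes. With the library code as a block, 0 members were called for Morphine, Metamorphine, TRV130, Beta-endorphin or Naloxone (0% of all genes each) and 0 in the mean of the 5 (0.0043%). In that fit, members higher at an unadjusted p below 0.05 numbered 13 with Morphine (8.05% of all genes) and 11 with Metamorphine (11.3%). They numbered 1 with TRV130 (1.56%), 15 with Beta-endorphin (13.5%), 7 with Naloxone (9.54%) and 13 in the mean (13.4%). Members lower at that threshold are not given for that fit. Library by library, members lay on both sides of the Control of the same code. At the ends, SV2C, RIMS1, RAB3B and RAB3C were above it in 15 of 15 compound libraries. NAPA and VAMP1 were above it in 1, and SYN3 and VAMP3 in 2. These 15 differences use only 3 Control libraries, and the share of all genes at such counts is not given. SV2C, RIMS1, RAB3B and RAB3C each have at least 8000 bp of exon, a class of genes that moved with the libraries, as described further on. The smallest adjusted p of a member with a single compound in the block fit was 0.134 by edgeR, with Beta-endorphin.

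By role, the docking, priming and active zone genes had the highest median log2 fold changes against Control with 3 of the compounds: 0.40 with Morphine, 0.43 with Metamorphine and 0.51 with Beta-endorphin, beside 0.15 with TRV130 and 0.32 with Naloxone. Of these 10 genes, 9 have at least 8000 bp of exon, and transcript length moved with the libraries, as described further on. With the gap between long and short genes as a covariate, the medians of the docking group were 0.12, 0.09, -0.02, 0.16 and 0.04 for Morphine, Metamorphine, TRV130, Beta-endorphin and Naloxone, and lay below those of the synaptotagmins at 0.23, 0.27, 0.10, 0.32 and 0.36. Without the covariate, the synaptotagmins had medians of 0.32, 0.34, 0.18, 0.36 and 0.39 for Morphine, Metamorphine, TRV130, Beta-endorphin and Naloxone. The 11 genes around the SNAREs had medians between -0.15 with Naloxone and 0.09 with Metamorphine, with members on both sides of 0: with Metamorphine, NSF was at 0.37, NAPA at -0.42 and VAMP1, a vesicle SNARE, at -0.54 (edgeR adjusted p = 0.595, 0.595 and 0.604). Medians of the vesicle membrane group ran from -0.02 with Naloxone to 0.23 with TRV130, and those of the retrieval group from 0.11 with Beta-endorphin to 0.22 with Morphine and TRV130. No role had a called member.

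**Figure D2:**
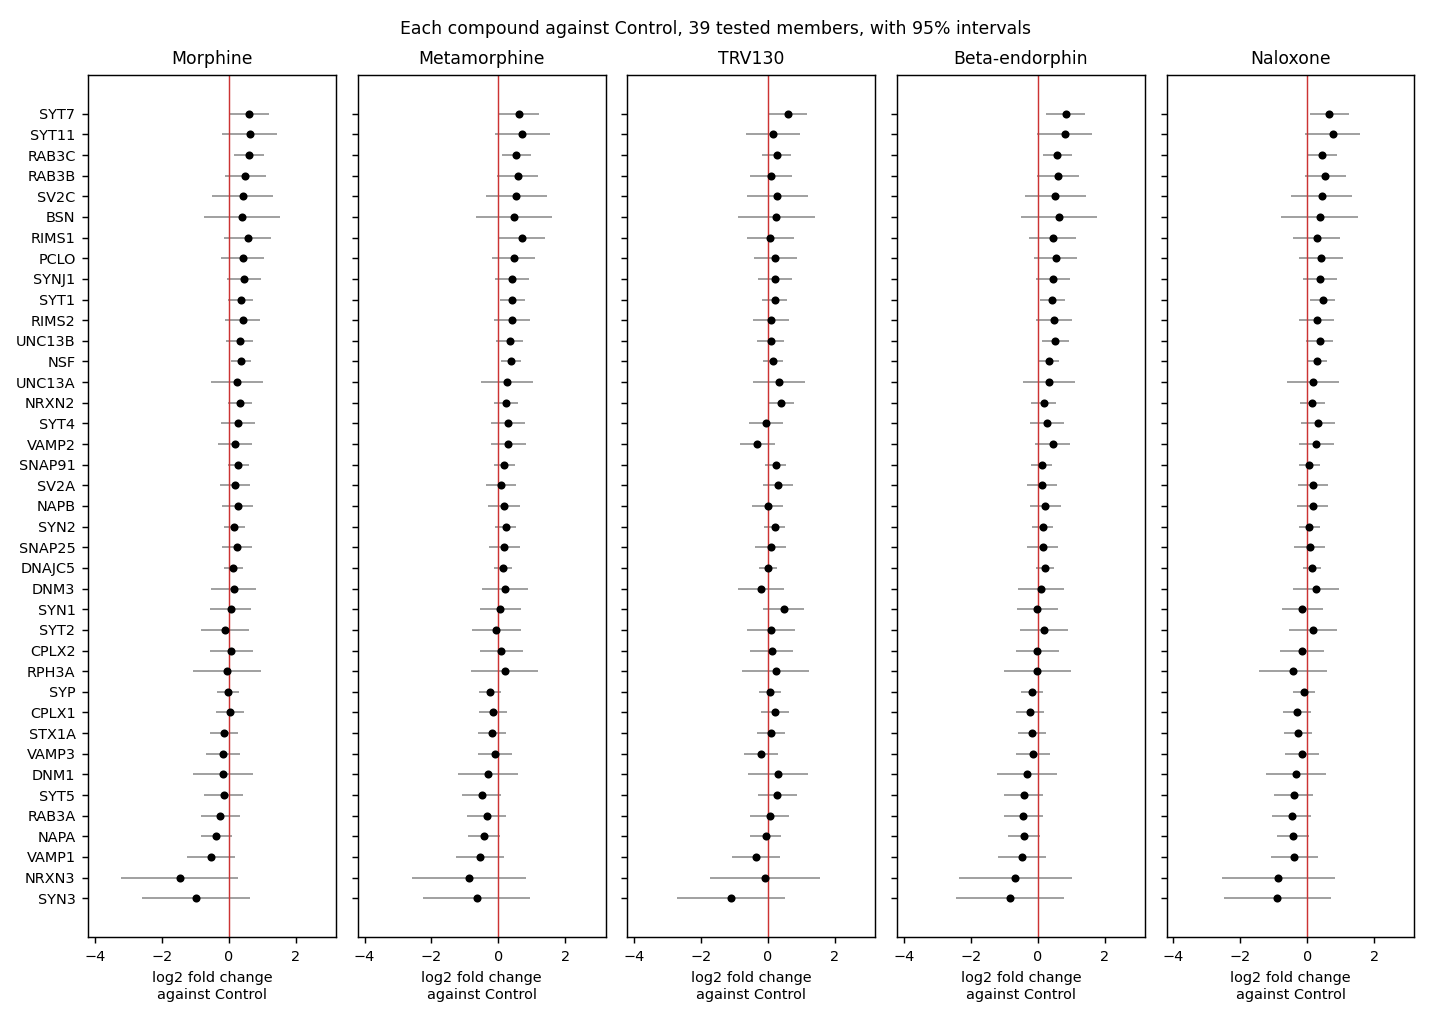
Log2 fold change of each of the 39 tested members against Control for the 5 compounds, with 95% intervals; genes are ordered by the mean of the compounds and the red line is 0. No member reached adjusted p below 0.05, and the wide intervals at the ends of the axis belong to low members such as NRXN3 and SYN3.

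RAB3C (ENSG00000152932, chr5:58582221-58859394, plus strand, GRCh38), a RAB3 GTPase of neuronal vesicles, had the smallest p with Morphine. Its libraries 1, 2 and 3 held 30.2, 24.4 and 25.1 CPM with Morphine, 27.1, 23.2 and 25.5 CPM with Metamorphine, and 17.7, 20.4 and 24.6 CPM with TRV130. They held 30.3, 22.7 and 25.4 CPM with Beta-endorphin and 24.9, 22.8 and 24.1 CPM with Naloxone, against 12.3, 16.8 and 23.3 CPM in Control. Control 1 and 2 lay below the libraries of every compound, while Control 3 lay within their range. Means were 26.6 ± 3.15 CPM with Morphine and 17.5 ± 5.54 CPM in Control (SD, n = 3 each). Log2 fold changes against Control were 0.60 ± 0.21 with Morphine (SE, 95% interval 0.17 to 1.04, adjusted p = 0.823 by edgeR), 0.53 with Metamorphine, 0.26 with TRV130, 0.58 with Beta-endorphin and 0.45 with Naloxone. Without Control 1 the values with Morphine, Metamorphine, Beta-endorphin and Naloxone became 0.39, 0.33, 0.36 and 0.26. Without Control 3 they became 0.88, 0.80, 0.85 and 0.72 in the same order. In that setting RAB3C was the 1 member called by edgeR in the mean of the 5 compounds, beside 366 of all 24143 genes tested. The mean log2 difference between compound libraries and the Control library of the same code was 1.00 in code A, 0.48 in code B and 0.10 in code C.

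UNC13B (ENSG00000198722, chr9:35161992-35405338, plus strand), a Munc13 priming factor, was among the first 3 with Beta-endorphin. Its libraries held 44.4, 43.3 and 37.8 CPM with Morphine, 46.3, 44.1 and 36.5 CPM with Metamorphine, and 28.8, 31.2 and 45.6 CPM with TRV130. They held 53.7, 50.1 and 40.7 CPM with Beta-endorphin and 44.3, 48.4 and 36.2 CPM with Naloxone, against 31.2, 38.9 and 29.9 CPM in Control. Each Beta-endorphin library lay above each Control library, and TRV130 1 was the lowest of all 18. UNC13B was picked for a small p, which favours such separation, and the share of all genes so separated is not given. The log2 fold change with Beta-endorphin was 0.53 (95% interval 0.12 to 0.94, adjusted p = 0.513 by edgeR), and with TRV130 it was 0.08. UNC13B has 17916 bp of exon, and with the gap between long and short genes as a covariate the Beta-endorphin value was 0.27. The mean difference from the Control of the same code was 0.37, 0.25 and 0.34 in codes A, B and C.

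SYT7 (ENSG00000011347, chr11:61515313-61581148, minus strand), the slower calcium sensor, was among the first 3 with 4 of the compounds. Its libraries held 13.3, 10.1 and 10.0 CPM with Morphine, 15.1, 10.8 and 7.86 CPM with Metamorphine, and 9.98, 10.9 and 12.3 CPM with TRV130. They held 15.8, 13.4 and 10.2 CPM with Beta-endorphin and 15.6, 11.2 and 8.13 CPM with Naloxone, against 5.49, 8.48 and 8.08 CPM in Control. Every library of Morphine, TRV130 and Beta-endorphin lay above the 3 Control libraries, whereas Metamorphine 3 and Naloxone 3 fell within the Control range. A member picked for a small p tends to separate in this way, and the share of all genes that did is not given. Log2 fold changes were 0.60, 0.61, 0.59, 0.84 and 0.66 for Morphine, Metamorphine, TRV130, Beta-endorphin and Naloxone, with a 95% interval of 0.25 to 1.42 and an adjusted p of 0.513 by edgeR for Beta-endorphin. Without Naloxone 1 the Naloxone value was 0.40. With the library code as a block and Control 1 left out, the values with Morphine, TRV130, Beta-endorphin and Naloxone were 0.26, 0.08, 0.48 and 0.31. With the gap between long and short genes as a covariate, those with Morphine, Beta-endorphin and Naloxone were 0.39, 0.56 and 0.41. The mean difference from the Control of the same code was 1.26 in code A, 0.44 in code B and 0.15 in code C.

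SYT1 (ENSG00000067715, chr12:78863993-79452008, plus strand), the fast calcium sensor, was among the first 3 with Metamorphine and Naloxone. Its libraries held 83.5, 89.0 and 78.6 CPM with Morphine, 88.4, 88.5 and 84.8 CPM with Metamorphine, and 65.2, 71.8 and 89.3 CPM with TRV130. They held 75.6, 94.6 and 95.6 CPM with Beta-endorphin and 85.2, 94.2 and 91.2 CPM with Naloxone, against 49.2, 65.2 and 81.7 CPM in Control. All Metamorphine and Naloxone libraries lay above the 3 Control libraries, a separation favoured by the choice of SYT1 for its small p. Its share over all genes is not given. Means were 90.2 ± 4.58 CPM with Naloxone and 65.4 ± 16.3 CPM in Control (SD, n = 3 each), a log2 fold change of 0.46 with an adjusted p of 0.655 by edgeR. Without Control 1 the values were 0.24 with Metamorphine, against 0.42 with all libraries, and 0.30 with Naloxone. The mean difference from the Control of the same code was 0.66, 0.48 and 0.10 in codes A, B and C.

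NSF (ENSG00000073969, chr17:46590669-46757464, plus strand), the ATPase that takes SNARE complexes apart, had the smallest p with Metamorphine. Its libraries held 33.03, 32.1 and 29.9 CPM with Morphine, 32.3, 32.1 and 32.1 CPM with Metamorphine, and 27.3, 27.2 and 27.7 CPM with TRV130. They held 35.1, 28.97 and 29.9 CPM with Beta-endorphin and 32.5, 29.5 and 28.4 CPM with Naloxone, against 22.1, 22.6 and 29.6 CPM in Control. Control 3 lay among the compound libraries, and Control 1 and 2 lay below all of them. The log2 fold change with Metamorphine was 0.37 (adjusted p = 0.595 by edgeR). The mean difference from the Control of the same code was 0.49 in code A, 0.41 in code B and 0.02 in code C.

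With TRV130, the members with the smallest p were NRXN2, SYT7 and SYN1. NRXN2 (ENSG00000110076, chr11:64606174-64723188, minus strand) held 87.6, 95.3 and 97.7 CPM with TRV130 and 62.1, 83.8 and 66.9 CPM in Control, without overlap. The share of all genes without such overlap is not given. Control 3, at 66.9 CPM, is of code C, which TRV130 lacks. By code, NRXN2 held 62.8 to 80.9 CPM in C, 83.8 to 101 CPM in B and 62.1 to 95.3 CPM in A. The log2 fold change of NRXN2 with TRV130 was 0.40 (95% interval 0.03 to 0.77, adjusted p = 1.00 by edgeR), and libraries of the other compounds held 62.8 to 101 CPM. With the library code as a block and Control 1 left out, the value was 0.19. SYN1 (ENSG00000008056, chrX:47571898-47619943, minus strand), whose product tethers vesicles, held 39.02, 41.1 and 30.0 CPM with TRV130 and 37.2, 22.9 and 19.0 CPM in Control. Its log2 fold change of 0.47 had a 95% interval from -0.14 to 1.09, and with the library code as a block the value was 0.27. It was 0.79 without Control 1 and 0.29 without Control 3. TRV130 has no library of code C, where the SYN1 levels of the other groups were lowest, at 15.7 to 24.4 CPM.

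**Figure D3:**
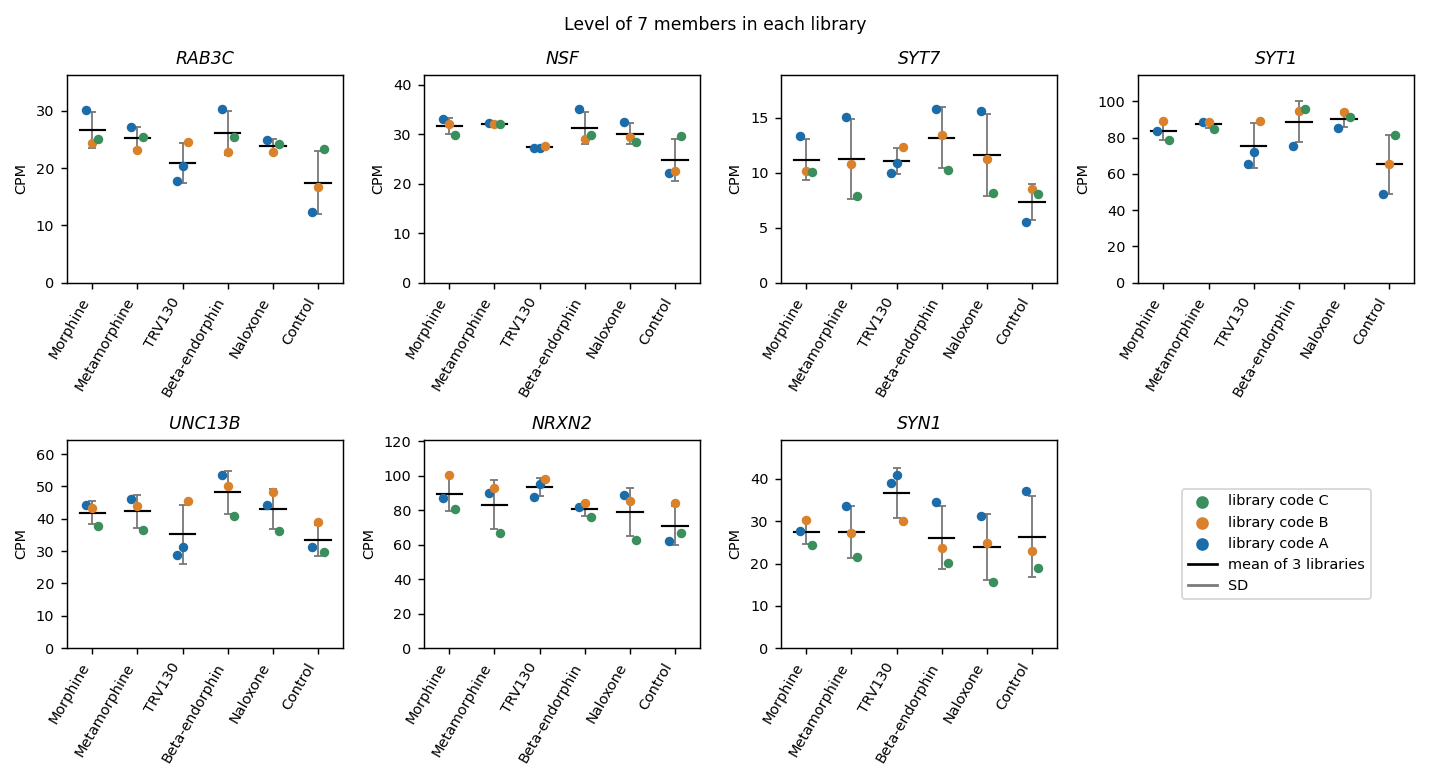
Level in CPM of the 7 members with the smallest p in a comparison with Control; points are libraries coloured by library code, the black line is the mean of 3 libraries and the grey bar the SD. For RAB3C, SYT1 and NSF, Control 1 and 2 lie low and Control 3 lies beside the compound libraries.

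Within codes, the distance of the compound libraries from Control differed from member to member, also inside a role. The genes given here were chosen after their values were seen. In code A, the mean log2 difference from Control was 1.14 for BSN, 0.93 for RIMS1, 0.88 for RAB3B and 0.80 for PCLO and SV2C, but -0.60 for RAB3A, a docking gene like the first 4, and -0.62 for NAPA. In code B the values of BSN, RIMS1, RAB3B, PCLO and SV2C were -0.09, 0.14, 0.26, 0.12 and 0.29, and in code C they were 0.39, 0.50, 0.33, 0.34 and 0.20. RAB3A and NAPA had -0.02 and -0.18 in code B and -0.14 and -0.15 in code C. SYT11, the most abundant member, lay above Control by 0.71, 0.49 and 0.55 in codes A, B and C. Its libraries held 492, 411 and 243 CPM with Morphine, 474, 509 and 242 CPM with Metamorphine, 147, 205 and 478 CPM with TRV130, 403, 479.8 and 427 CPM with Beta-endorphin and 423, 448 and 391 CPM with Naloxone, against 199, 331 and 215 CPM in Control. The Beta-endorphin and Naloxone libraries of SYT11 did not overlap those of Control, with log2 fold changes of 0.81 and 0.76 and adjusted p-values of 0.513 and 0.655 by edgeR. The share of all genes without such overlap is not given, so the separation is a description only.

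The other compounds were also set against Morphine. No member was called by edgeR in any of the 4 pairs, with Metamorphine, TRV130, Beta-endorphin or Naloxone (0% of all genes each), and p-values were adjusted over all genes within each pair. At an unadjusted p below 0.05 there were 0 members in each pair, beside 0.323%, 1.18%, 0.336% and 0.349% of all genes. DESeq2 called 0 members too. The test of any difference among the 6 groups called 0 members (0% of all genes), with 0 at an unadjusted p below 0.05 (2.43%). Doses differed: 169 nM for Metamorphine and 200 nM for TRV130, Beta-endorphin and Naloxone, against 193 nM for Morphine.

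The median member log2 fold change against Morphine was 0.01 for Metamorphine, -0.06 for TRV130, 0.00 for Beta-endorphin and -0.07 for Naloxone. The member with the smallest p for Metamorphine was SYP, at -0.23 (95% interval -0.56 to 0.10), and for TRV130 VAMP2, the main vesicle SNARE, at -0.51 (-1.03 to 0.01). For Beta-endorphin and Naloxone it was CPLX1, a complexin, at -0.25 (-0.67 to 0.17) and -0.34 (-0.75 to 0.08). For SYT7 the values were 0.01, -0.01, 0.24 and 0.06 for Metamorphine, TRV130, Beta-endorphin and Naloxone, and for SNAP25 they were -0.08, -0.17, -0.10 and -0.17. The interval of SNAP25 for Metamorphine ran from -0.54 to 0.39, so differences of that size could not be told from 0 here. VAMP2 held 31.5, 40.4 and 70.4 CPM with TRV130, against 67.3, 63.6 and 71.5 CPM with Morphine, and the 2 low TRV130 libraries are those of code A.

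Members differed between library codes, as most genes did. In an edgeR model with group and code, 26 of 39 members differed among the 3 codes at adjusted p below 0.05, beside 57.8% of all genes. Of the members, 22 were called in code C against code B (54.8% of all genes), 17 in C against A (33.2%) and 10 in B against A (26.9%). The members' shares were near those of all genes in C against B and in B against A. In C against B, 5 members were higher (26.9% of all genes) and 17 lower (27.8%). In C against A, 5 were higher (16.1%) and 12 lower (17.1%), and in B against A, 3 were higher (11.5%) and 7 lower (15.5%). The median member log2 fold change was -0.19 in C against B, -0.17 in C against A and 0.02 in B against A, beside -0.04, -0.02 and 0.02 over all genes. The count in B against A was 6 without TRV130 3, 17 without Morphine 1 and 4 without the 3 TRV130 libraries. It was 2 with the gap between long and short genes, described further on, as a covariate. Calls over all genes fell as well, from 6256 of 23231 to 2520 of 23949 without TRV130 3. They were 1862 of 22922 without the 3 TRV130 libraries and 652 of 23231 with the gap as a covariate. TRV130 has no library of code C, and whether the code marks a culture, an extraction or a sequencing run is not given in the labels.

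By role, calls went in both directions, and differences between roles were not tested. In C against B, 4 vesicle membrane genes, 3 synaptotagmins, 6 docking and active zone genes, 2 retrieval genes and 1 adhesion gene were lower in code C, with 1 higher, the GTPase RAB3A. Around the SNAREs, 4 were higher (VAMP3, SNAP25, NAPB and NAPA) and 1 was lower (VAMP1). Role medians were -0.42 for vesicle membrane genes, -0.36 for synaptotagmins, -0.43 for docking genes, -0.28 for retrieval, -0.47 for adhesion and 0.15 around the SNAREs. With the gap between long and short genes as a covariate, they were -0.44, 0.18, 0.08, 0.06, -1.27 and 0.20 in that order, so the medians of synaptotagmins, docking and retrieval genes changed sign. Called in no pair of codes were RAB3C, RIMS2, SYP, SYN2, SYT1, SYT4, SYT7, NSF, DNAJC5, CPLX1, SNAP91 and NRXN3. Summed mesenchymal markers moved along with the codes, at 303 to 355 CPM in code C, 435 to 521 CPM in B and 371 to 481 CPM in A, and summed neuronal markers stood at 6711 to 7622, 6468 to 7475 and 7536 to 8963 CPM. Mitochondrial transcripts took 4.66% to 9.47% of the counts in code C, 8.02% to 15.7% in B, where Control 2 was highest, and 6.15% to 17.7% in A, with TRV130 1 and 2 at 17.7% and 15.6% and Control 1 at 13.3%. The part of these markers and of the mitochondrial share in the code differences was not tested.

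**Figure D4:**
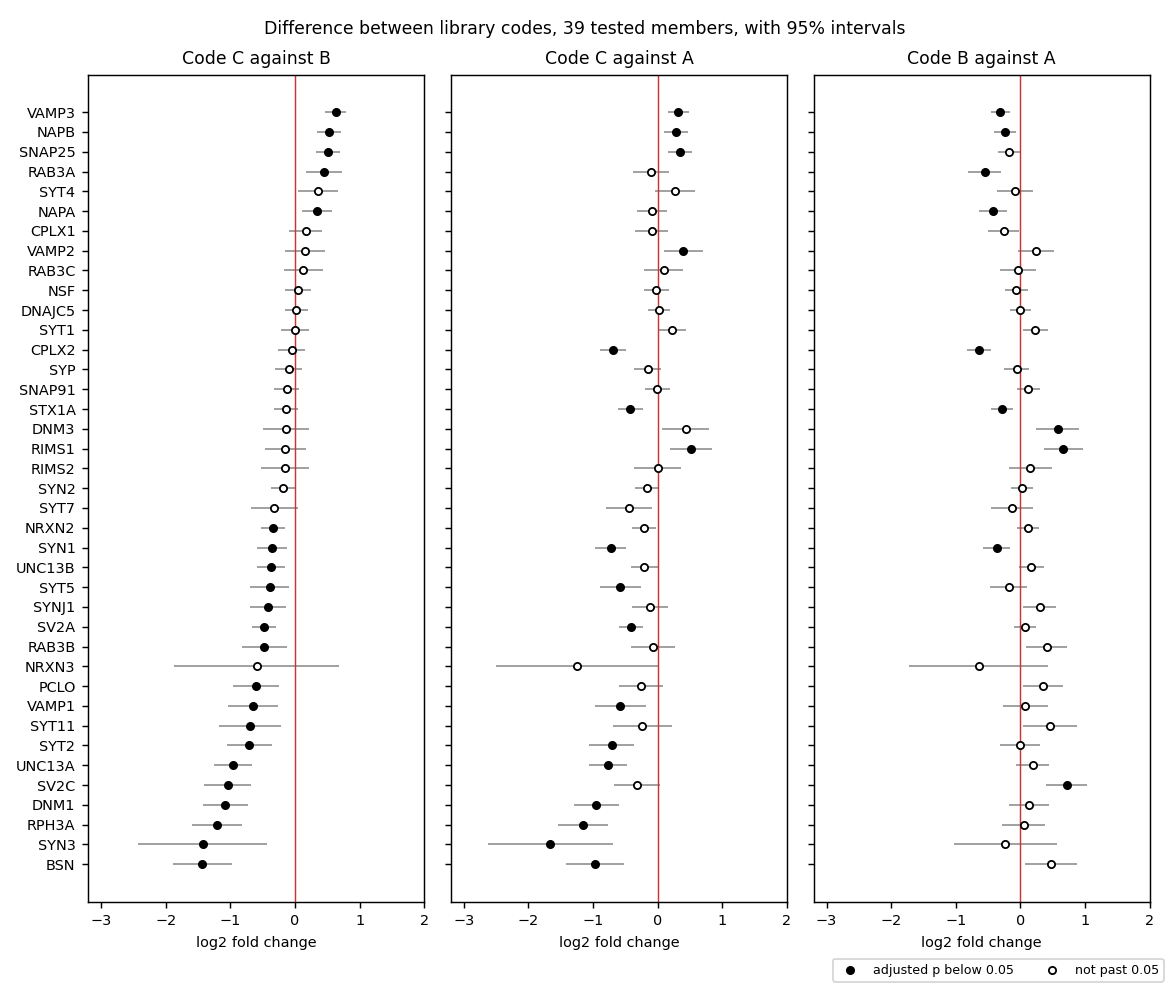
Log2 fold change of the 39 tested members between library codes, with 95% intervals; filled points have adjusted p below 0.05 by edgeR. VAMP3, NAPB and SNAP25 stand at the top of code C against B and BSN, RPH3A and DNM1 near the bottom.

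Among the genes around the SNAREs, VAMP3 and CPLX2 showed the clearest code differences. VAMP3 (ENSG00000049245, chr1:7771269-7781432, plus strand), whose promoter stretch holds 4 GC boxes, held 61.8, 70.5, 58.7, 65.1 and 72.4 CPM in the code C libraries of Morphine, Metamorphine, Beta-endorphin, Naloxone and Control. Code B libraries held 40.98 to 43.4 CPM with a median of 42.7, and code A libraries 48.5 to 57.8 CPM with a median of 52.7. The 3 codes did not overlap. Log2 fold changes were 0.63 ± 0.08 in C against B (SE, edgeR adjusted p = 1.71e-05), 0.32 in C against A and -0.31 in B against A, where the call was lost without the 3 TRV130 libraries (adjusted p = 0.0558). CPLX2 (ENSG00000145920, chr5:175796310-175884020, plus strand), a complexin, held 38.3, 39.1, 41.1, 36.3 and 39.1 CPM in code C in that order of groups, 31.2 to 51.2 CPM in code B and 53.4 to 66.5 CPM in code A. Code A stood above both others without overlap, with -0.69 ± 0.10 in C against A (adjusted p = 0.00025) and -0.64 ± 0.09 in B against A (adjusted p = 0.0004). SNAP25 held 110.0 to 129 CPM in code C, 73.7 to 104 CPM in B and 78.0 to 106 CPM in A, and its fold in C against B was 0.52 ± 0.09 on the log2 scale (adjusted p = 0.00015).

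Among the vesicle membrane genes, SYN1 stood highest in code A. It held 24.4, 21.4, 20.1, 15.7 and 19.0 CPM in code C for Morphine, Metamorphine, Beta-endorphin, Naloxone and Control, 22.9 to 30.3 CPM in code B and 27.7 to 41.1 CPM in code A. The ranges of C and A did not overlap, and the log2 fold change was -0.73 ± 0.11 in C against A and -0.36 in C against B, a call lost without Morphine 2, Naloxone 2 or Naloxone 3. With the gap between long and short genes as a covariate, the value in C against B was -0.62. SV2A held 99.9, 78.4, 101, 90.6 and 76.9 CPM in code C in that order, 115 to 131 CPM in B and 101 to 131 CPM in A, and was lower in C against B by -0.48 on the log2 scale. SV2C moved further, with 28.3 to 40.7 CPM in C, 53.1 to 71.4 CPM in B and 22.9 to 54.7 CPM in A, and with -1.04 ± 0.17 in C against B (edgeR adjusted p = 0.000118).

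UNC13A, RPH3A and BSN had lower levels in code C than in code B. UNC13A (ENSG00000130477, chr19:17601328-17688365, minus strand) held 51.0, 40.7, 50.1, 34.7 and 35.0 CPM in code C for Morphine, Metamorphine, Beta-endorphin, Naloxone and Control, 68.0 to 89.4 CPM in B and 49.2 to 85.2 CPM in A. Its fold was -0.96 ± 0.14 in C against B on the log2 scale (adjusted p = 4.32e-05 by edgeR), and the ranges of these 2 codes did not overlap. With the long-short gap as a covariate it was -0.36 (adjusted p = 0.0653). RPH3A (ENSG00000089169, chr12:112570380-112898881, plus strand) held 2.31, 2.46, 2.10, 1.36 and 1.34 CPM in code C in that order, 2.74 to 5.74 CPM in B and 3.67 to 4.46 CPM in A. Every code C library of RPH3A lay below all others, at -1.21 ± 0.18 in C against B (adjusted p = 5.55e-05) and -1.16 ± 0.18 in C against A. BSN (ENSG00000164061, chr3:49554489-49671545, plus strand), the bassoon scaffold, held 18.4, 18.6, 26.5, 18.8 and 15.5 CPM in code C, and its fold of -1.44 ± 0.22 was the largest of the tested members in C against B with an adjusted p of 5.82e-05. Code B libraries of BSN held 39.1 to 53.6 CPM. In code A they held 52.6, 50.0, 20.9, 27.8, 49.9 and 38.1 CPM in Morphine 1, Metamorphine 1, TRV130 1, TRV130 2, Beta-endorphin 1 and Naloxone 1, against 17.0 CPM in Control 1.

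DNM1 (ENSG00000106976, chr9:128191655-128255248, plus strand), the dynamin of vesicle retrieval, held 117, 65.5, 70.6, 51.2 and 67.9 CPM in code C for Morphine, Metamorphine, Beta-endorphin, Naloxone and Control, 141 to 203 CPM in B and 126 to 207 CPM in A. Morphine 3 was the highest of its code, and still below every library of the other codes. The log2 fold change was -1.08 ± 0.16 in C against B (edgeR adjusted p = 6.07e-05) and -0.95 ± 0.16 in C against A. RAB3A (ENSG00000105649, chr19:18196784-18204074, minus strand) held 26.0 to 34.7 CPM in code C, 19.3 to 26.6 CPM in B and 24.5 to 47.8 CPM in A, with Control 1 highest. It was 0.44 higher in C against B on the log2 scale, and -0.55 in B against A.

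Counted as members whose libraries did not overlap, code C stood above B for VAMP3, SNAP25 and NAPB (22.4% of all genes) and below B for 10 members (20.3%): SV2A, SV2C, SYT2, VAMP1, UNC13A, RPH3A, BSN, DNM1, SYNJ1 and NRXN2. Code C stood above A for VAMP3, SNAP25 and NAPB (7.47%) and below A for SV2A, SYN1, CPLX2, STX1A, RPH3A and DNM1 (6.13%). Code B stood above A for DNM3 and RIMS1 (3.27%) and below A for VAMP3 and CPLX2 (4.9%).

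Other members were called between codes as well. STX1A held 44.1 to 51.0 CPM in code C, 47.8 to 57.1 CPM in B and 54.7 to 77.1 CPM in A, and its log2 fold change was -0.43 in C against A. RIMS1, a RIM scaffold, held 5.49 to 8.55 CPM in code C, 7.25 to 9.93 CPM in B and 2.74 to 7.08 CPM in A, the lowest range, with 0.52 in C against A and 0.67 in B against A. PCLO held 20.4 to 31.4 CPM in C and 31.2 to 40.3 CPM in B, a log2 fold change of -0.60.

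Lower in code C than in B were also SYT11 at -0.70, SYT2 at -0.70, VAMP1 at -0.65, RAB3B at -0.48, SYNJ1 at -0.42, SYT5 at -0.40, UNC13B at -0.38 and NRXN2 at -0.34 on the log2 scale. SYT2, SYT5 and VAMP1 were lower in C against A as well, at -0.71, -0.58 and -0.58. SYN3, with few reads, stood at -1.43 in C against B and -1.66 in C against A, and DNM3 at 0.57 in B against A. VAMP2 was called in C against A at 0.39, but not in the test over all 3 codes (edgeR adjusted p = 0.0627). NAPB, an adaptor of NSF, held 41.5 to 43.8 CPM in code C, 24.2 to 34.4 CPM in B and 28.5 to 40.1 CPM in A, and code C lay above both others.

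Transcript length moved with these differences. The gap between long and short genes was taken in each library as the median deviation of 3047 tested coding genes of at least 8000 bp of exon, members left out, minus that of 2574 coding genes of at most 2500 bp. It was between -0.51 and -0.09 in code C, between 0.18 and 0.54 in code B, and between 0.13 and 0.27 in the code A libraries of Morphine, Metamorphine, Beta-endorphin and Naloxone. TRV130 1 and 2 had gaps of -0.40 and -0.37, and Control 1 had -0.88, the lowest of the 18. Of the tested members, 15 have at least 8000 bp of exon, among them BSN with 16225 bp and PCLO with 22873 bp.

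In code C against B, 10 of the 15 long members were lower and 0 higher, beside 44.4% lower and 12.8% higher among all long coding genes. Of the 24 other tested members, 7 were lower and 5 higher, beside 20.5% lower and 38.4% higher among 11883 coding genes of less than 8000 bp. The median log2 fold change was -0.48 for the long members and -0.26 for all long genes, and -0.08 for the other members and 0.14 for other coding genes. In code B against A, 3 long members were higher and 0 lower (25.8% and 5.25% of all long genes), and of the other members 0 were higher and 7 lower (7.78% and 23.9%).

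The long members also lay furthest from Control where Control had the lowest gap. In code A, the median log2 difference between a compound library and Control 1 over the long members ran from 0.37 to 1.12, with 12 to 14 of 15 higher, and that over the other members from -0.06 to 0.18. All long coding genes were higher than in Control 1 in 72.5% to 76.9% of cases and short ones in 21.9% to 30.3%. In code B the long members' medians ran from 0.06 to 0.26 and in code C from 0.05 to 0.45. With the gap as a covariate, chosen after seeing the data, 0 members were called by edgeR against Control. The log2 fold change of BSN in the mean of the 5 compounds was then -0.19, against 0.42 without the covariate, and those of RAB3C and NSF were 0.43 and 0.29, against 0.49 and 0.30. In code C against B, 2 of the 10 long members, RPH3A at -1.40 and DNM1 at -1.12, stayed called lower with the covariate and 8 did not, BSN among them at -0.31 (edgeR adjusted p = 0.127). RAB3C and RIMS2, both long, were called higher there, at 0.69 and 0.72. Over all genes, calls in code C against B also fell with the covariate, from 12719 to 6917 of 23231. Gap and code differ together between libraries, so the share of each in a member's difference cannot be told apart.

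**Figure D5:**
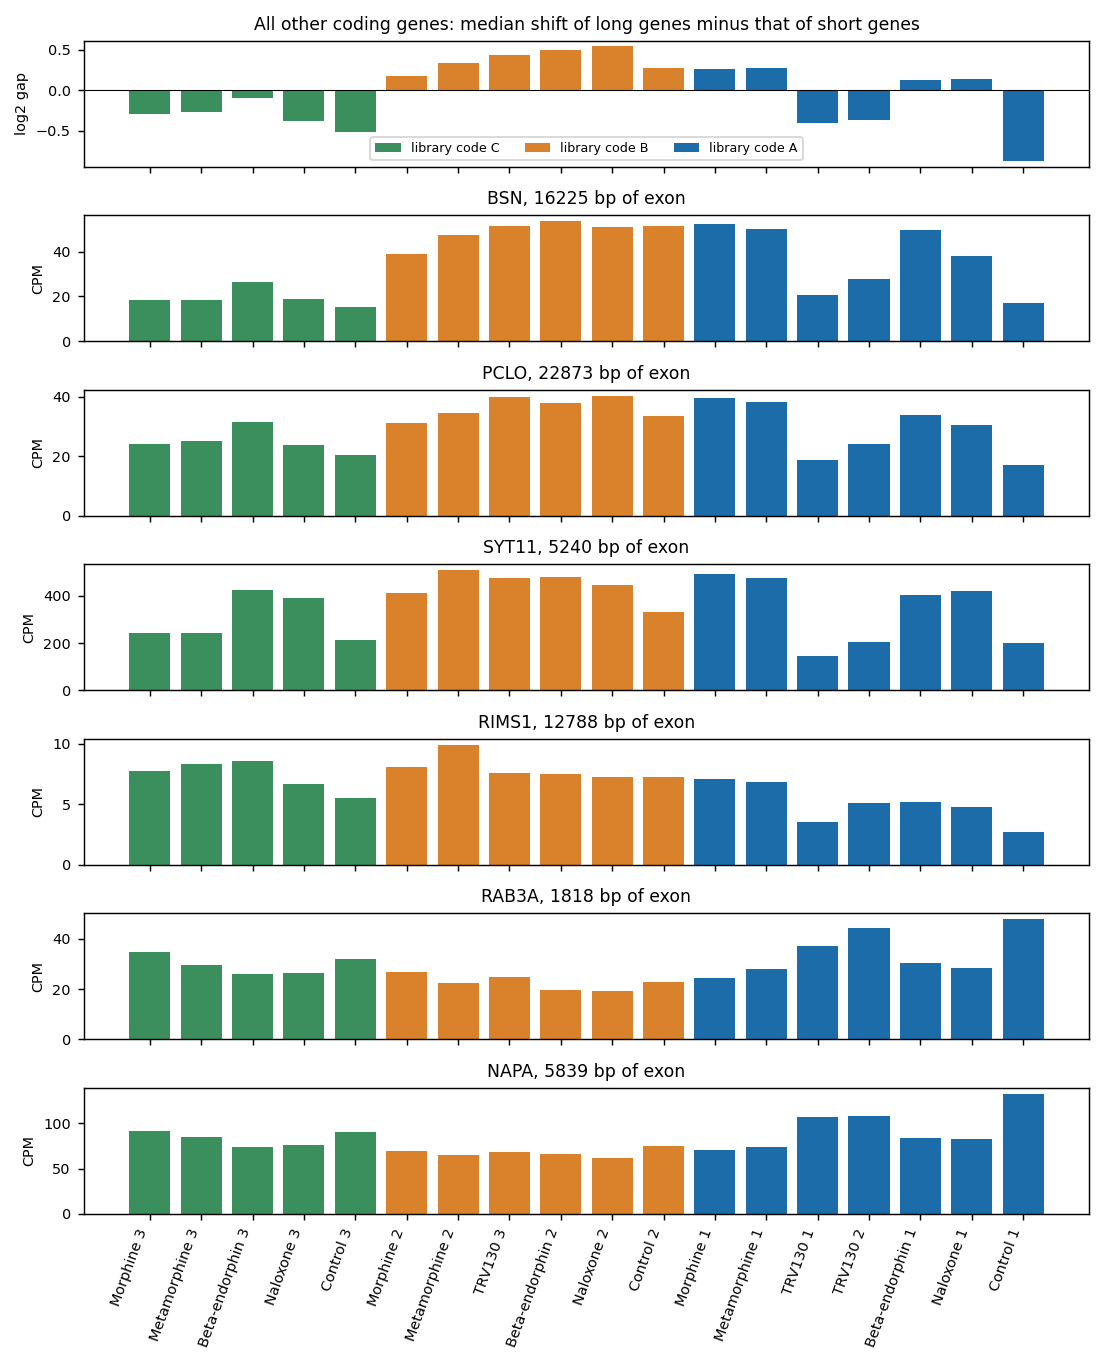
Top panel, long-minus-short gap of all other coding genes in each library (log2); lower panels, CPM of 6 members chosen after their values were seen, with their exon length. BSN is low where the gap is below 0, as in the code C libraries and Control 1, whereas RAB3A and NAPA stand highest in Control 1. PCLO is mostly low there too, but Beta-endorphin 3 at 31.4 CPM stands above Naloxone 1 at 30.4 and Morphine 2 at 31.2 CPM, where the gap is above 0.

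Around the members, 105 other genes of the pathway in 5 lists were read in the same fits. Most were tested: 18 of 22 for vesicle membrane and transporters, 13 of 16 for synaptotagmin and C2 domain proteins, 18 of 21 for SNAREs and SM proteins, 20 of 23 for the active zone and RAB regulators, and 21 of 23 for endocytosis. Per kb of exon, HSPA8, the chaperone that strips clathrin, stood at 150.4 CPM and SLC18A3, the vesicular acetylcholine transporter, at 20.02 CPM, above SLC18A1, a vesicular monoamine transporter, at 9.26 CPM. Against Control, 0 of these genes were called by edgeR with any compound. DNAJC6, the auxilin of clathrin uncoating, had log2 fold changes of 0.56, 0.56, 0.21, 0.60 and 0.46 with Morphine, Metamorphine, TRV130, Beta-endorphin and Naloxone, and adjusted p-values of 0.823, 0.595, 1.00, 0.513 and 0.655. DOC2A, a calcium sensor of the C2 domain family, had -0.59, -0.82, -0.14, -0.87 and -0.70 in that order, with the same adjusted p-values.

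Between codes C and B, 51 of the 90 tested neighbours were called (56.7%), a share near the 54.8% of all genes, with 26 higher and 25 lower. Of the SNARE and SM list, 14 were called, 9 higher and 5 lower, of endocytosis 17 (7 and 10), of the active zone list 11 (5 and 6), of the vesicle membrane list 8 (5 and 3) and of the synaptotagmin list 1, which was lower. SNAP29, a SNARE of endosomes and autophagosomes, had a log2 fold change of 0.69, and CLTA and CLTB, the clathrin light chains, had 0.69 and 0.82. The active zone genes PPFIA4 (liprin) and RIMBP2 (RIM-binding protein) stood at -1.40 and -0.87.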

How the data were processed

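RNA was measured in 18 libraries, 3 in each of 6 groups. Per the labels' protocols, libraries carried no strand information. The deposited table holds raw counts of reads per Ensembl gene. The submitters' processing notes name FastQC, HISAT2, featureCounts, DESeq2 and the GRCh38 (hg38) build, with versions and annotation not given in the sources used here. All 58735 gene IDs matched GENCODE 29, which gave symbols, positions and exon lengths, and 0 columns were left unused.

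Counts were analysed with edgeR 4.0.16, limma 3.58.1 and DESeq2 1.42.0 in R 4.3.3, and figures drawn with Python 3.11.15 and matplotlib 3.10.9. The filter filterByExpr, at a minimum count of 10, left 23231 genes. After TMM scaling, edgeR's robust quasi-likelihood fit took in all 18 libraries, with group alone for comparisons of groups and with group and library code for comparisons of codes. P-values are two-sided, and Benjamini-Hochberg adjustment ran over the 23231 genes at a threshold of 0.05. Log2 CPM used a prior count of 2. The steps were tested on simulated data, and the outcome is not given here. The simulated spread was that of the fit with group and code, a coefficient of variation of 0.18. The fit with group alone had 0.31 in the data, so the simulation does not stand for the comparisons with Control. The codes of TRV130 1 and 2 carry an extra leading digit and were read as code A.

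The members, lists and tests were chosen with earlier results of these data known. Values per library, or their range in each code, are given for the 3 members with the smallest p against Control for each compound, the member highest per kb in each role, the 6 with the largest F among codes and those under 1 CPM. Other genes were named after their values were seen. Results of certain genes in the pathway lists are not reported here. Alternatives were DESeq2, RLE size factors, no count filter, replicate number or library code as a block, the compared groups alone, code without group, TRV130 left out and each library left out in turn. Added after seeing the data were a code block without Control 1, a fit without Control 1, TRV130 1 and TRV130 2, and the gap between long and short genes as a covariate. Sequences are from RefSeq (GRCh38.p14).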

Additional observations from a re-analysis of the deposited data

Results flagged for a closer look

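Within a library code, 7 of the 58 sets tested, over 20 members, held a library far from the rest. Chance gives about 1 in 20 among genes taken without regard to their values. Most of these members were chosen for small p-values against Control or large differences between codes, which favours sets with a distant Control library, so the count is a description only. The lowest of the 6 code B libraries was Control 2 for RAB3C, at 16.8 CPM with the next at 22.7, and for SYT1, at 65.2 CPM with the next at 88.5. Control 2 was also the highest of that code for DNM1, at 203.0 CPM with the next at 159. Among the 7 code A libraries, Control 1 was lowest for NRXN2, at 62.1 CPM with the next at 81.7, and for SNAP25, at 78.0 CPM with the next at 98.8. It was highest for SV2B, at 1.57 CPM with the next at 0.30, and for AMPH, at 0.315 CPM with the next at 0.133, both members with few reads. The cause was not tested.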

How the results depend on the processing

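Of the counts of called members, 122 of 125 values under other settings and 267 of 270 with 1 library left out stayed within 1.5 times the value given. A 0 that stayed 0 was included, and the value given was 0 in every comparison of groups. These shares therefore say little about the comparisons of groups. The exceptions were 5 of code B against A, with 10 members, and 1 of the mean of the 5 compounds. For B against A the count was 4 without the 3 TRV130 libraries, and, in settings added after seeing the data, 6 without Control 1, TRV130 1 and TRV130 2 and 2 with the long-short gap as a covariate. With 1 library left out it ran from 6 (without TRV130 3) to 17 (without Morphine 1). For the mean of the 5 compounds it ran from 0 to 1 (without Control 3). Values near 0 changed sign: CPLX2 in C against B was 0.010 without the count filter and between -0.089 and 0.073 with 1 library left out, RPH3A in B against A lay between -0.051 and 0.12, and UNC13A in B against A was -0.038 without those 3 libraries and -0.20 with the gap as a covariate. The cause was not tested. Over all genes, the mean of the 5 compounds gave 0 calls, but 3270 without the count filter, 366 without Control 3, 18 with the gap as a covariate, 12 with DESeq2 and 1 with the code as a block. In B against A, 6256 genes became 652 with the gap as a covariate, 1862 without TRV130 and 2520 without TRV130 3. They became 2130 without Control 1, TRV130 1 and TRV130 2. In C against B 12719 became 6917 with the gap as a covariate, and in C against A 7709 became 4819 without Naloxone 3. The replicate number as a block, and the library code as a block, called 0 members in every comparison of groups. Log2 CPM of any 2 libraries correlated between 0.912 and 0.991 over the tested genes. For the values that follow, the mean of each group was first subtracted, and only libraries of different groups were compared. Same-numbered libraries then correlated between -0.56 and 0.76 over 45 pairs, with 29 over 0.1, and 14 of 18 libraries correlated best with their own number. For libraries of the same code, these correlations ran from -0.35 to 0.76, with 36 of 45 over 0.1, and 15 of 18 libraries correlated best with their own code. The labels do not say that a number pairs samples. With 3 libraries per group, log2 differences within about 0.53 of 0 could not be told from it at the median member.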
